A study of Mus musculus with 24 samples.

Results

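The mouse mitochondrial chromosome carries 37 genes in the GRCm38 annotation, and all 37 were rows of the deposited table of 55385 genes. They were taken by chromosome alone, with no use of their counts: 13 protein-coding genes, 2 rRNA genes and 22 tRNA genes, with symbols that begin with mt-. Counts came from 24 RNA-seq libraries of the hippocampus (HIP) and entorhinal cortex (EC) of 12 adult male mice, 6 wild-type (wt) and 6 Ts65Dn, in 4 groups of 6 libraries. Ts65Dn mice, a model of Down syndrome, carried a freely segregating extra minichromosome with the part of mouse chromosome 16 (Mmu16) from Mrpl39 to Zbtb21 and a centromeric part of Mmu17 that has no counterpart on human chromosome 21. The wt mice were their littermates, on a mixed F1 B6C3B background, with no drug or other treatment. For its behavioural cohorts the paper names B6C3B fathers and Ts65Dn mothers, and it does not repeat the cross for the sequenced mice. Mitochondrial DNA is inherited from the mother, and its sequence and amount were not compared between genotypes.

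Mitochondrial DNA is transcribed from both strands into long precursors, which are cut mainly at the tRNAs that lie between the other genes. The 2 rRNAs form the core of the mitochondrial ribosome, and the 22 tRNAs serve the translation of the 13 mRNAs on it. Those mRNAs encode subunits of respiratory complexes I, III and IV and of the ATP synthase, which supply most of the ATP of neurons. Most of the genes are read in 1 direction, while mt-Nd6 and 8 of the tRNA genes lie on the opposite strand.

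The tRNA genes described by name below were 66 to 71 bases long and barely longer than the 50-base reads of the study. Their sequences are shown because mt-Te had the largest genotype difference of the 5 genes called, and because mt-Tc, mt-Te and mt-Tq had the highest counts among the tRNA genes, while mt-Ts1, mt-Tp, mt-Ti and mt-Tm were, with mt-Te, the tRNA genes called between regions. Letters are those of the GRCm38 transcripts of GENCODE, on the strand of the gene, with the anticodon in capitals.
mt-Te (glutamate, chrM:14071-14139, minus strand, next to mt-Nd6): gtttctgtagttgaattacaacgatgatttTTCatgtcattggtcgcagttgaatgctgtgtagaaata
mt-Tc (cysteine, chrM:5192-5257, minus strand): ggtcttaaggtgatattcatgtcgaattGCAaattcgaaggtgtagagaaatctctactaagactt
mt-Tq (glutamine, chrM:3772-3842, minus strand): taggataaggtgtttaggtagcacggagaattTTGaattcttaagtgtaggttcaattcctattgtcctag
mt-Ts1 (serine, chrM:6870-6938, minus strand): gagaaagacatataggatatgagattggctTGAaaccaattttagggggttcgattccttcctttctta
mt-Tp (proline, chrM:15356-15422, minus strand): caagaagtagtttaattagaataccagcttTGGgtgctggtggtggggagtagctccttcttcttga
mt-Ti (isoleucine, chrM:3706-3774, plus strand): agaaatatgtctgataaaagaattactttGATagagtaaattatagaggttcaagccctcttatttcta
mt-Tm (methionine, chrM:3845-3913, plus strand): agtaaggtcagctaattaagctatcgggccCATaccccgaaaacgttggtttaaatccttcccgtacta

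Copies of mitochondrial sequence also lie in the nuclear chromosomes, and a read that occurs in both places cannot be assigned to either. Each mitochondrial gene was therefore cut into windows of 50 bases and searched for in the annotated nuclear transcripts of the same build, on either strand. For mt-Co2, mt-Co3, mt-Atp6, mt-Nd4l and mt-Nd3, 98.0% or more of windows were found again, and the closest copy of each was a pseudogene on chromosome 1. Gm10925, the copy of mt-Atp6, and Gm28437, Gm28661 and Gm10222, those of mt-Co3, mt-Co2 and mt-Nd4l, had 0 differences over their whole lengths of 678, 783, 681 and 294 bases. The first 50 bases of mt-Atp6 and mt-Nd3 are shown with those of their copies, with the base that differs in capitals.
mt-Atp6 (chrM:7927-7976, plus strand): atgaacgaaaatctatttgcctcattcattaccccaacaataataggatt
Gm10925 (chr1:24614602-24614651, minus strand): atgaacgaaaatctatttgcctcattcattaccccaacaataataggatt
mt-Nd3 (chrM:9459-9508, plus strand): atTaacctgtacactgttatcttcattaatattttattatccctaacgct
Gm28438 (chr1:24613070-24613119, minus strand): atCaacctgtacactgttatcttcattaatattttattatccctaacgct
The pair of mt-Nd3 and Gm28438 differed only by T3C, counted from the first base of the gene, over 345 bases. The shared windows fell to 62.2% for mt-Nd4, 51.1% for mt-Co1, 8.2% for mt-Nd2, 7.6% for mt-Nd5 and 1.0% for mt-Rnr2. No window of mt-Rnr1, mt-Nd1, mt-Nd6, mt-Cytb, mt-Atp8 or any tRNA gene was found, but copies outside annotated transcripts were not searched.

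Libraries held 23128589 to 40476492 gene counts each, of which 805053 to 2227174 fell on the 37 genes. Summed markers of the hippocampus were at 1078 to 1417 CPM (counts scaled to a common library size) in HIP libraries and 341 to 448 in EC libraries, and those of the cortex at 395 to 497 and 843 to 951. As a check of the labels, 77 genes of the triplicated Mmu16 segment had a median level of 1.45 to 1.54 times wt in 10 Ts65Dn libraries, but 1.01 times wt in the HIP library and 1.0 times wt in the EC library labelled Ts65Dn replicate 3, which lay within the wt libraries (0.978 to 1.01). The share of the 37 genes and the mitochondrial genes called between genotypes are therefore also given without that mouse. The class shares, count ratios, nuclear lists and other settings include it. Summed haemoglobin and Alas2 markers of blood were lower in Ts65Dn, with medians of 94.6 against 124 CPM in the HIP and 154 against 222 in the EC, and overlapped between genotypes. Summed choroid plexus markers ran from 55.2 to 5172 CPM in HIP libraries, with medians of 1294 in wt and 1972 in Ts65Dn, and from 8.66 to 51.0 in EC libraries. In the EC, thalamus markers were lower in Ts65Dn, at 88.3 to 110 CPM (median 101) against 109 to 132 (median 118) in wt, and striatum markers had a median of 112 in Ts65Dn and 91.6 in wt, with overlap in both. In the HIP the medians of thalamus markers were 98.8 in Ts65Dn and 103 in wt, and those of striatum markers 64.0 and 63.2. The part of these markers in the results was not tested. In these bulk samples, fewer cells of a type and less RNA per cell cannot be told apart.

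The 37 genes took a smaller share of all gene counts in Ts65Dn than in wt in both regions. In the HIP the share was 3.81%, 4.32% and 4.60% (lowest, median and highest) in wt and 3.40%, 3.51% and 4.39% in Ts65Dn. Of the 6 Ts65Dn mice, 5 lay below the lowest wt mouse, and Ts65Dn replicate 5 lay among the wt mice. The difference of the means was -0.611 percentage points (SE 0.187), and -0.63 without the library labelled Ts65Dn replicate 3. In the EC the share was 4.51%, 5.31% and 7.06% in wt and 3.82%, 4.15% and 5.07% in Ts65Dn. Again 5 Ts65Dn mice lay below the lowest wt mouse, and Ts65Dn replicate 5 above it. The difference was -1.23 percentage points (SE 0.402), and -1.25 without Ts65Dn replicate 3. As a sum over the genes described, the share was given no test. The plot of shares by library shows these values.

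**Figure D1:**
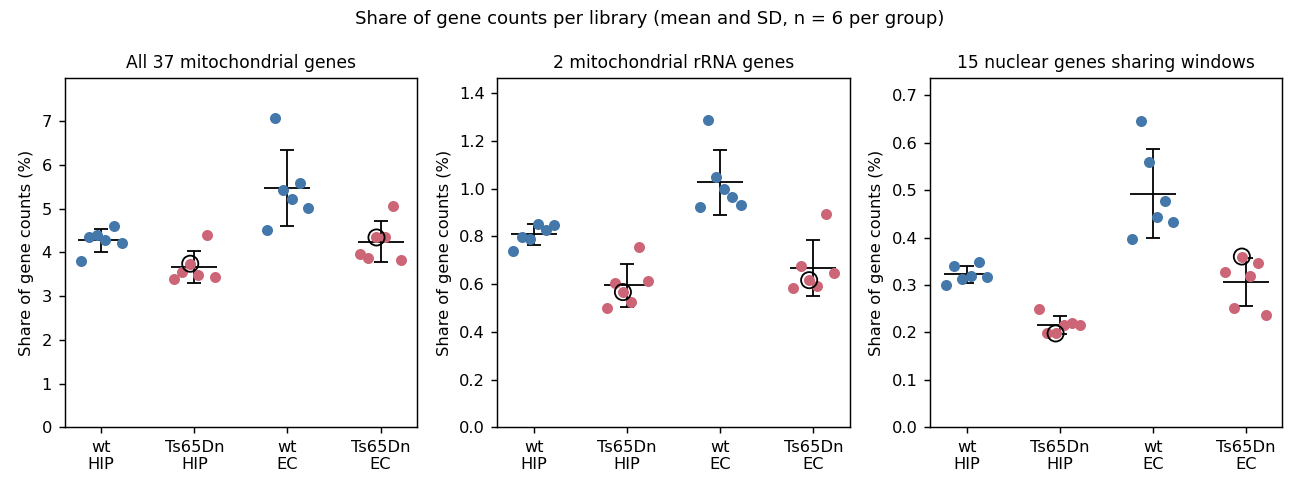
Share of all gene counts (%) in each library for the 37 mitochondrial genes, the 2 rRNA genes and 15 nuclear genes that share 50-base windows with them; points are the 6 mice of a group in the order of their numbers, bars are mean and SD, and open circles mark the library labelled Ts65Dn replicate 3. The rRNA share of all 6 Ts65Dn mice lay below that of all 6 wt mice in the EC, and that of 5 of the 6 did so in the HIP.

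The difference was unequal between classes. For the rRNA genes, a difference in level and a difference in what poly-A selection or rRNA depletion left in the library cannot be told apart, since the sources differ on which was used. The rRNA share fell from 0.809% ± 0.0431 in wt to 0.595% ± 0.0898 in Ts65Dn in the HIP (SD, n = 6 mice each), a ratio of 0.735, and from 1.03% ± 0.138 to 0.669% ± 0.116 in the EC, a ratio of 0.650. For the protein-coding genes the same ratio was 0.886 (HIP) and 0.804 (EC). The tRNA genes together held 0.00417% ± 0.000679 of counts in wt and 0.00283% ± 0.000529 in Ts65Dn in the HIP, a ratio of 0.678. Their share in the EC was 0.00452% ± 0.000926 in wt and 0.00246% ± 0.000617 in Ts65Dn, a ratio of 0.545. In the EC all 6 Ts65Dn mice lay below all 6 wt mice in the rRNA and in the tRNA share, whereas 3 of 6 did so in the protein-coding share. These 6 include the library labelled Ts65Dn replicate 3, whose triplicated genes were at the wt level. It had 0.617% (rRNA) and 0.00177% (tRNA), the latter the lowest of the Ts65Dn EC group. The class means and ratios include that mouse.

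Most mitochondrial counts came from a few genes. Over the 24 libraries the protein-coding genes took 82.3% of them, the rRNA genes 17.6% and the tRNA genes 0.0796%. mt-Co1, the core subunit of cytochrome c oxidase, took 20.2%, mt-Cytb, the cytochrome b of complex III, 17.7%, and mt-Nd1, a core subunit of complex I, 15.6%. Per length, mt-Nd1 was highest among the protein-coding genes with 7261 CPM per kb, followed by mt-Cytb with 6865 and mt-Co1 with 5801. mt-Nd2, mt-Nd4, mt-Nd6 and mt-Nd5, further subunits of complex I, had 2106 to 4220 CPM per kb. Neighbours in this order were close: in the wt HIP, mt-Nd1 had 6490 ± 501 CPM and mt-Cytb 7020 ± 476 (SD, n = 6), or 6782 and 6136 CPM per kb on average.

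The remaining 6 protein-coding genes had at most 587 counts in any library, whereas the 7 genes above had at least 21859. mt-Co2 and mt-Co3, the other mitochondrial subunits of cytochrome c oxidase, and mt-Atp6, the proton channel subunit of the ATP synthase, had 10.2 to 14.2 CPM per kb. mt-Atp8, a small subunit of the same enzyme whose gene overlaps mt-Atp6, had 2.93, mt-Nd3 2.68 and mt-Nd4l 2.05. For 5 of the 6, nearly all windows recurred in nuclear transcripts, as shown above for mt-Atp6 and mt-Nd3, and the exception was mt-Atp8. That gene lies between mt-Co2 and mt-Atp6, whose copies are at chr1:24614885-24615565 (Gm28661) and chr1:24613974-24614651 (Gm10925). The bases between these copies were not searched, so whether they hold a copy of mt-Atp8 is not known. The nuclear copy held more counts than the mitochondrial gene in all 24 libraries for each of these 5 pairs: on average 879 CPM fell on Gm10925 and 9.70 on mt-Atp6, and 60.3 on Gm28438 and 0.933 on mt-Nd3. Levels of these genes therefore could not be compared with those of the others, and the counts were also analysed with each copy added to its closest mitochondrial gene.

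**Figure D2:**
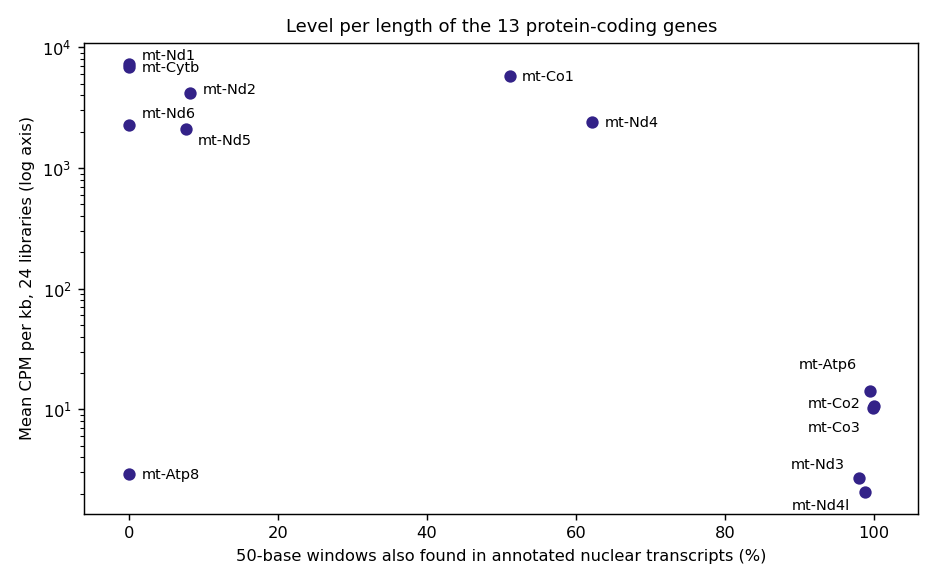
Mean CPM per kb over 24 libraries (log axis) of the 13 protein-coding genes against the share of their 50-base windows found in annotated nuclear transcripts (%). The 5 genes with 98.0% or more shared windows and mt-Atp8 lay at 2.05 to 14.2 CPM per kb and the other 7 at 2106 to 7261.

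Counts of the tRNA genes followed the strand. The 8 tRNA genes of the minus strand held 85.9% of tRNA counts, and 6 of them passed the filter on low counts, whereas 3 of the 14 on the plus strand did. mt-Tc had 13.6 CPM on average, mt-Te 9.71 and mt-Tq 3.52, all on the minus strand, and the other 6 tRNA genes that passed the filter had 0.580 to 2.17. The other 13 had 0 to 73 counts summed over the 24 libraries and were not tested, and mt-Tk had 0 counts in all of them. No tRNA gene reached the level per length of an rRNA gene: mt-Tc had 206 CPM per kb, mt-Te 141 and mt-Rnr1 3419.

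Between genotypes, 24 of the 37 genes could be tested: all 13 protein-coding genes, both rRNA genes and 9 tRNA genes. A gene was called where edgeR's quasi-likelihood test gave it an adjusted p under 0.05. In the HIP, mt-Te, mt-Rnr2 and mt-Atp6 fell in Ts65Dn, 3 of 24 genes, and 0 rose. Over all 17355 genes 1.04% were called in either direction, 0.501% lower and 0.542% higher. The 5 genes mt-Te, mt-Rnr2, mt-Rnr1, mt-Atp6 and mt-Nd1, fell in the EC and 0 rose, while 2.50% of all 17049 genes were called there, 1.35% lower and 1.15% higher. An unadjusted p under 0.05 with a lower level was found for 16 of 24 genes in the HIP (7.59% of all genes) and 18 of 24 in the EC (9.97%), and with a higher level for 0 (7.23% and 9.01% of all genes). A log2 fold change below 0 was found for 23 of 24 genes in the HIP (48.7% of all genes) and for all 24 in the EC (48.7%). The values lay between -1.28 and 0.30 with a median of -0.378 in HIP libraries, and between -1.32 and -0.17 with a median of -0.484 in EC libraries, whereas all genes had a median of 0.005 in both. In no mitochondrial gene did all Ts65Dn mice lie above all wt mice, as they did for 0.680% (HIP) and 1.27% (EC) of all genes. Genes near the count filter could pass it through 1 genotype alone, so these medians are given with no test. With 10 counts required in every library, 4 of 21 genes were called for HIP and 5 of 20 for EC, and the share of all genes called under that filter is not given.

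**Figure D3:**
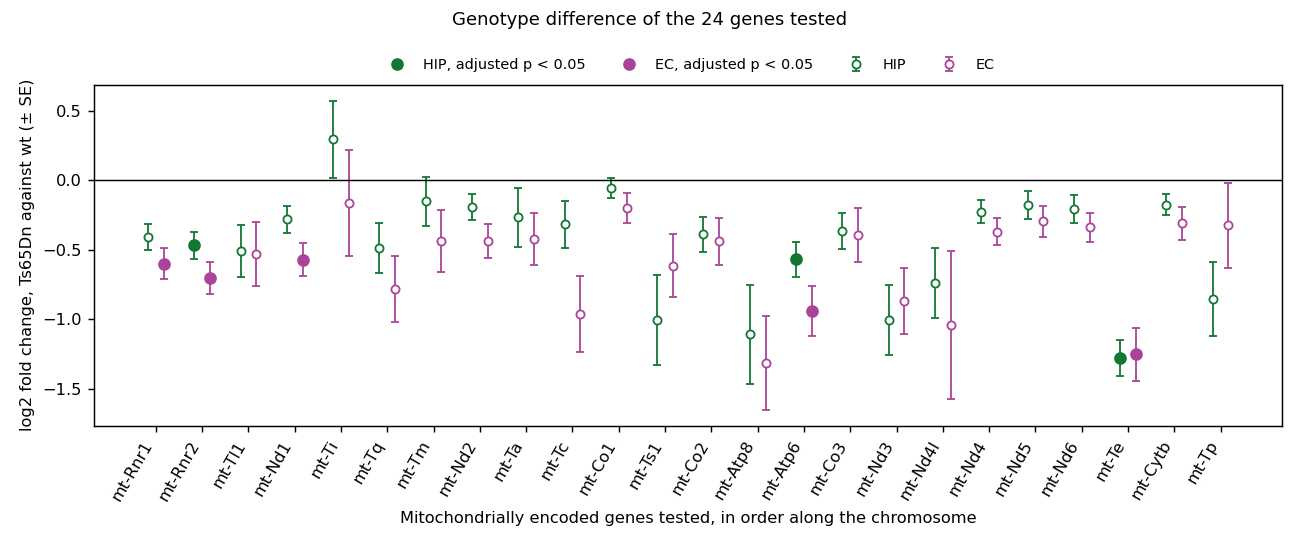
Log2 fold change of Ts65Dn against wt, with its SE, for the 24 genes tested, in order along the mitochondrial chromosome; filled points are the genes called. All points but that of mt-Ti in the HIP lie below 0, and mt-Te is the lowest of the filled points in both regions.

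mt-Te, which encodes the tRNA for glutamate, had 8.51, 11.3 and 14.1 CPM (lowest, median and highest) in the wt HIP and 3.57, 4.81 and 5.39 in the Ts65Dn HIP. All 6 Ts65Dn mice lay below all 6 wt mice, a pattern that 0.991% of genes showed in the HIP. The log2 fold change was -1.28 (SE 0.13, edgeR adjusted p = 0.000486), with 109 to 154 counts per Ts65Dn library and 228 to 513 per wt library. In the EC it had 12.1, 14.5 and 23.1 CPM in wt and 4.58, 7.43 and 8.63 in Ts65Dn. The groups again did not overlap, as for 1.18% of genes, and the log2 fold change was -1.25 (SE 0.19, adjusted p = 0.0068). The call held in all 12 fits that left out 1 mouse in each region, with adjusted p up to 0.00188 (HIP) and 0.0231 (EC). The library labelled Ts65Dn replicate 3, whose triplicated genes were at the wt level, had 4.12 CPM in the HIP and 7.23 in the EC, below every wt mouse. Without it the log2 fold changes were -1.25 and -1.27.

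mt-Te lies between mt-Nd6 on its own strand and mt-Cytb on the other, and its counts were set against theirs. For each 100 counts of mt-Nd6, a complex I subunit, there were 0.987 ± 0.0903 of mt-Te in the wt HIP and 0.481 ± 0.0873 in the Ts65Dn HIP (SD, n = 6), and 1.11 ± 0.107 and 0.595 ± 0.140 in the EC. The lowest wt mouse was at 0.834 in the HIP and 0.997 in the EC, above the highest Ts65Dn mouse at 0.596 and 0.784. Per 100 counts of mt-Cytb, mt-Te had 0.136 to 0.187 in the wt HIP and 0.0616 to 0.0895 in the Ts65Dn HIP. In the EC these ranges were 0.131 to 0.203 and 0.0679 to 0.111. Per 100 counts of mt-Rnr2 they were 0.199 to 0.306 and 0.107 to 0.191 in the HIP. In the EC the mt-Rnr2 ratios overlapped, at 0.213 to 0.304 in wt and 0.120 to 0.259 in Ts65Dn. mt-Nd6 itself had 1020, 1097 and 1327 CPM in the wt HIP and 833, 947 and 1281 in the Ts65Dn HIP, and its groups overlapped in both regions. Its log2 fold change was -0.21 (SE 0.10, adjusted p = 0.357) in the HIP and -0.34 (SE 0.11, adjusted p = 0.0983) in the EC by the same test. For mt-Cytb the values were -0.18 (SE 0.07, adjusted p = 0.285) and -0.31 (SE 0.12, adjusted p = 0.175).

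The rRNA of the large ribosomal subunit, mt-Rnr2, had 4206, 4690 and 4904 CPM in the wt HIP and 2830, 3246 and 4427 in the Ts65Dn HIP. Of the Ts65Dn mice, only replicate 5 lay above the lowest wt mouse. Its log2 fold change was -0.47 (SE 0.10, adjusted p = 0.034). The log2 fold change stayed between -0.56 and -0.42 in all 12 fits that left out 1 mouse, while the adjusted p crossed the threshold: the call held in 3 of them, those without wt replicate 1, Ts65Dn replicate 3 (adjusted p = 0.0381) or Ts65Dn replicate 5 (adjusted p = 0.00194), and was lost without each of wt replicates 2 to 6 and Ts65Dn replicates 1, 2, 4 and 6 (adjusted p up to 0.0854). In the EC, mt-Rnr2 had 5517, 5878 and 7978 CPM in wt and 3340, 3725 and 5178 in Ts65Dn, with no overlap. The log2 fold change there was -0.70 (SE 0.11, adjusted p = 0.00826), and the call held in all 12 fits. Without Ts65Dn replicate 3 it was -0.69 (adjusted p = 0.0094).

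mt-Rnr1, the rRNA of the small subunit, had 3005, 3200 and 3399 CPM in the wt HIP and 2020, 2416 and 3093 in the Ts65Dn HIP. The groups overlapped through Ts65Dn replicate 5, and the log2 fold change of -0.41 (SE 0.09) had an adjusted p of 0.057, or 0.0129 without that mouse. In the EC it had 4007, 4319 and 5583 CPM in wt and 2583, 2729 and 4031 in Ts65Dn, where replicate 5 again overlapped with wt. The log2 fold change was -0.60 (SE 0.11, adjusted p = 0.0168), and the call was lost in 1 of 12 fits, without Ts65Dn replicate 1 (adjusted p = 0.0517). Without Ts65Dn replicate 3 the values were -0.37 (adjusted p = 0.0656) in the HIP and -0.58 (adjusted p = 0.0222) in the EC. There were 1.44 ± 0.0307 counts of mt-Rnr2 for each count of mt-Rnr1 in the wt HIP and 1.38 ± 0.0831 in the Ts65Dn HIP, and 1.40 ± 0.0490 and 1.31 ± 0.0433 in the EC (SD, n = 6), with overlap in both regions.

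mt-Nd1, which follows the rRNA genes on the chromosome, had 7574, 9242 and 12276 CPM in the wt EC and 5476, 6197 and 8466 in the Ts65Dn EC. Its log2 fold change was -0.57 (SE 0.12, adjusted p = 0.0236), and the call held in 7 of 12 fits. It was lost without wt replicate 4 or 5 or Ts65Dn replicate 1, 2 or 4, with adjusted p up to 0.0662. In the HIP it had 5701, 6567 and 7143 CPM in wt and 4372, 5399 and 6663 in Ts65Dn, with a log2 fold change of -0.28 (SE 0.10, adjusted p = 0.182). Without Ts65Dn replicate 3 the values were -0.28 (adjusted p = 0.181) in the HIP and -0.57 (adjusted p = 0.0302) in the EC. The groups overlapped in both regions. mt-Co1 differed least among the protein-coding genes, with log2 fold changes of -0.06 (SE 0.07) in the HIP and -0.20 (SE 0.11) in the EC.

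mt-Atp6 had 7.32, 10.8 and 12.2 CPM in the wt HIP and 5.81, 7.14 and 7.83 in the Ts65Dn HIP, with overlap. The log2 fold change was -0.57 (SE 0.12, adjusted p = 0.0464), and the call held in 2 of 12 fits, without wt replicate 1 (adjusted p = 0.0225) or Ts65Dn replicate 3 (adjusted p = 0.0446). It was lost without each of wt replicates 2 to 6 and Ts65Dn replicates 1, 2, 4, 5 and 6, with adjusted p up to 0.114. In the EC it had 11.9, 12.6 and 19.5 CPM in wt and 5.32, 6.98 and 11.2 in Ts65Dn, with no overlap. In that region the log2 fold change was -0.94 (SE 0.18, adjusted p = 0.0174), and the call was lost without Ts65Dn replicate 1 (adjusted p = 0.0531). Without Ts65Dn replicate 3 it was -0.86 (adjusted p = 0.022). Since the windows of mt-Atp6 recur in Gm10925, these counts cannot be assigned to the mitochondrial gene alone.

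**Figure D4:**
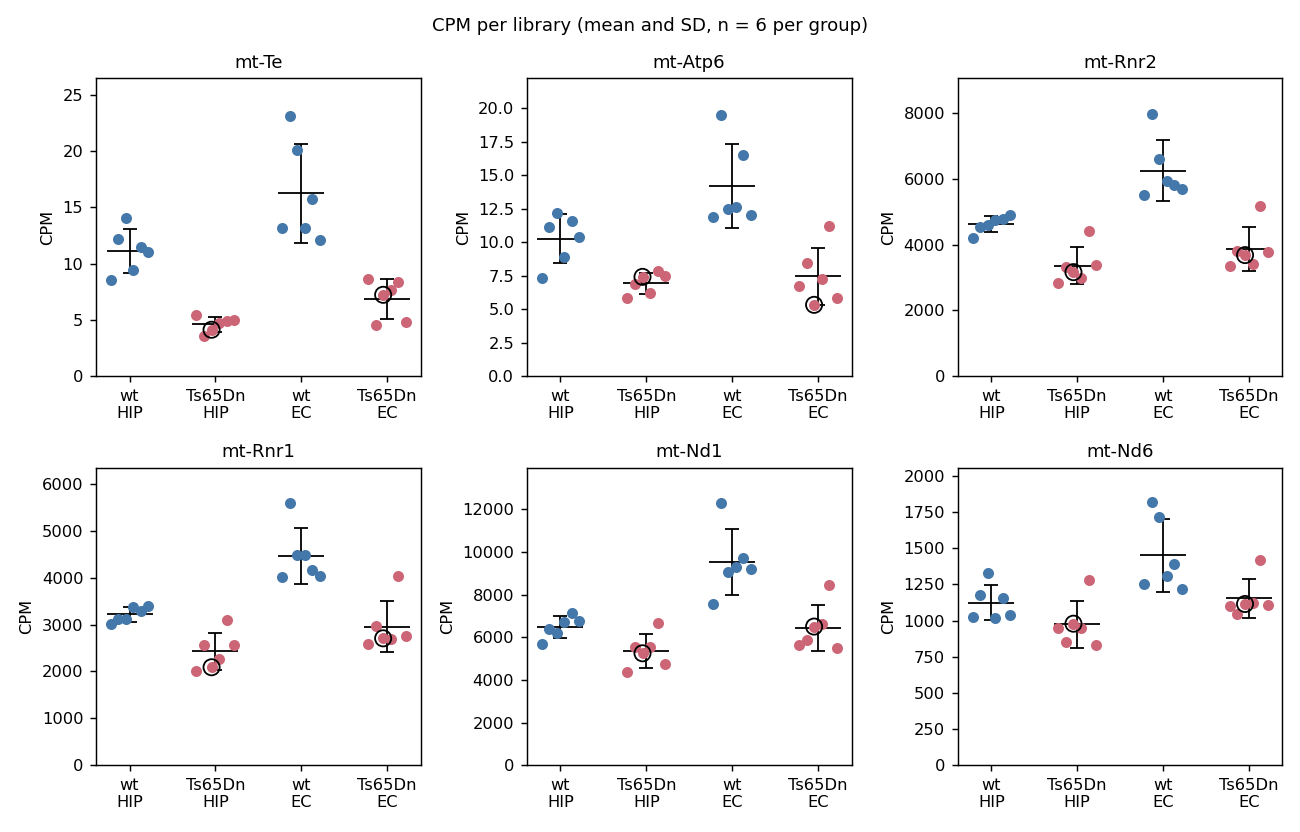
CPM of mt-Te, mt-Atp6, mt-Rnr2, mt-Rnr1, mt-Nd1 and mt-Nd6 in each library; points are the 6 mice of a group in the order of their numbers, bars are mean and SD, and open circles mark the library labelled Ts65Dn replicate 3. In mt-Te the Ts65Dn and wt mice do not overlap in either region, with 3.57 to 5.39 against 8.51 to 14.1 CPM in the HIP.

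The lowest protein-coding genes had large differences on few counts. mt-Atp8 had 14 to 64 counts per library in the wt HIP and 4 to 22 in the Ts65Dn HIP, with a log2 fold change of -1.11 (SE 0.36, adjusted p = 0.16), and 8 to 28 and 2 to 14 in the EC, with -1.32 (SE 0.34, adjusted p = 0.0538). It was called in the EC in 2 of 12 fits that left out 1 mouse, without wt replicate 6 and without the library labelled Ts65Dn replicate 3 (-1.53, adjusted p = 0.0334). mt-Nd3 had a log2 fold change of -1.0 (SE 0.25, adjusted p = 0.0813) in HIP libraries and of -0.87 (SE 0.24, adjusted p = 0.0665) in EC libraries. For mt-Nd4l they were -0.74 (SE 0.25) and -1.04 (SE 0.53), and in the wt EC 1 mouse, replicate 2, had 2.10 CPM while the other 5 had 0.247 to 0.690.

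The counts of each nuclear copy were added to its closest mitochondrial gene, a setting chosen after seeing the data. In these fits 7 of 24 genes were called lower for HIP and 9 of 24 for EC. The share of all genes called in them is not given, so the numbers are not set against those above. mt-Co2, mt-Co3, mt-Nd3 and mt-Nd4l were called in both regions in addition to the genes above. The log2 fold change of mt-Co3 with Gm28437 was -0.66 (SE 0.07, adjusted p = 0.000678) in the HIP and -0.83 (SE 0.16, adjusted p = 0.0174) in the EC, while that of mt-Co3 alone was -0.37 and -0.40. For mt-Atp6 with Gm10925 it was -0.71 (SE 0.06, adjusted p = 0.000372) and -0.93 (SE 0.13, adjusted p = 0.00538). Of the nuclear genes that share windows, 10 of 12 tested were called lower in Ts65Dn HIP (0.501% of all genes) and 8 of 13 in Ts65Dn EC (1.35%), and 0 higher (0.542% and 1.15%). With a trend of each library in GC content and length removed, 6 of 12 and 2 of 13 were called, all lower, the 2 being Gm10222 and Gm13339. For this setting too the share of all genes called is not given.

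The genotype differences of nuclear genes moved with GC content. The 15 rRNA and protein-coding genes have 31.9% to 41.1% GC. Nuclear genes in this range had a median log2 fold change of -0.134 in the HIP, with 2.83% called lower, and of -0.178 in the EC, with 7.13% called lower, whereas all nuclear genes tested had a median of 0.005 in both, with 0.485% and 1.32% called lower. Nuclear copies of mitochondrial sequence, of which 10 (HIP) and 8 (EC) were called lower, were not taken out of the nuclear genes. They were also not taken out of the genes that set the trend below. With a trend of each library in GC content and length removed, 1 of 24 genes was called in the HIP and 0 in the EC. mt-Te kept a log2 fold change of -0.88 (SE 0.13, adjusted p = 0.0136) in the HIP and of -0.70 (SE 0.17, adjusted p = 0.0826) in the EC. For mt-Rnr2 the values were -0.27 (adjusted p = 0.226) and -0.42 (adjusted p = 0.0984), and for mt-Nd6 0.06 and 0.04. Only 3 nuclear genes of at most 75 bases were tested, so the trend was hardly covered by genes as short as the tRNAs.

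**Figure D5:**
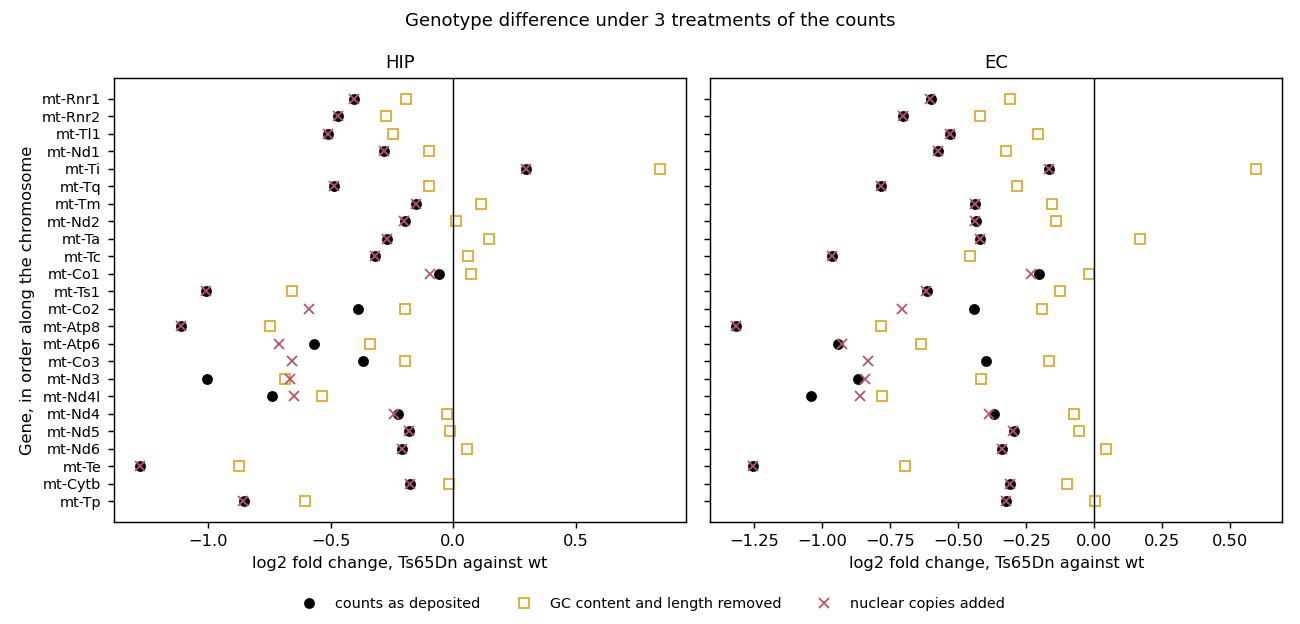
Log2 fold change of Ts65Dn against wt for the 24 genes tested, from the counts as deposited, with a trend in GC content and length removed, and with the counts of nuclear copies added. Removing the trend moved mt-Te from -1.28 to -0.88 (HIP) and from -1.25 to -0.70 (EC); adding copies moved the genes that share windows.

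A fit that kept mice apart asked whether the genotype difference itself differed from region to region (an interaction). Of the 24 genes, 0 were called by edgeR and 0 by DESeq2, beside 0% of all 18109 genes by edgeR. At an unadjusted p under 0.05 there were 5 of 24 by edgeR, mt-Nd1, mt-Nd2, mt-Tc, mt-Rnr2 and mt-Atp6, all with the smaller decrease in the HIP (1.92% of all genes), 0 in the other direction (2.18%), and 6 by DESeq2. The difference was below 0 for 4 of 24 genes (50.1% of all genes). mt-Nd1 had the smallest p, with a difference of the log2 fold changes of 0.28 (SE 0.09, unadjusted p = 0.00715), mt-Nd2 had 0.23 (SE 0.09, unadjusted p = 0.0178) and mt-Tc 0.70 (SE 0.27, unadjusted p = 0.0188). mt-Te had -0.02 (SE 0.15). mt-Tc had 11.8, 15.1 and 20.4 CPM in the wt HIP and 8.60, 11.9 and 18.0 in the Ts65Dn HIP, but 13, 17.3 and 24.2 in the wt EC and 3.36, 8.71 and 15.8 in the Ts65Dn EC, where its log2 fold change was -0.96 (SE 0.27, adjusted p = 0.0755). The lowest of these was the library labelled Ts65Dn replicate 3. Without that mouse the difference between regions fell to 0.46 and the EC value was -0.79 (adjusted p = 0.0662), and without Ts65Dn replicate 5 mt-Tc was called in the EC (adjusted p = 0.0357). Without a filter on low counts, mt-Tc was called in this test (0.69, adjusted p = 0.0393), a setting that was not run without replicate 3.

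Between regions, the same mice had a smaller mitochondrial share in the HIP than in the EC in 12 of 12 cases. The mean difference was -0.882 percentage points (SE 0.178), at -1.19 (SE 0.306) in the wt mice and -0.571 (SE 0.0817) in the Ts65Dn mice. In the fit that kept mice apart, 17 of 24 genes were called, beside 68.4% of all genes: 14 were lower in the HIP (32.9% of all genes) and 3 higher (35.5%). Without regard to the test, 16 of 24 were below 0 (48.9%). All genes with at least 21859 counts per library were lower, as were both rRNA genes, with log2 fold changes from -0.44 to -0.24. mt-Cytb averaged 6626 CPM in HIP and 9081 in EC libraries, a log2 fold change of -0.44 (SE 0.05, adjusted p = 6.97e-07), lower in the HIP in 12 of 12 mice. mt-Co3 had the same value of -0.44 (SE 0.09, adjusted p = 0.000364).

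The tRNA genes split between regions. mt-Te (-0.54, SE 0.07, adjusted p = 6.45e-06) and mt-Ts1 (-0.63, SE 0.19, adjusted p = 0.00632) were lower in the HIP, each in 11 of 12 mice. mt-Tp (0.62, SE 0.16, adjusted p = 0.00275), mt-Ti (0.45, SE 0.19, adjusted p = 0.0432) and mt-Tm (0.29, SE 0.09, adjusted p = 0.00923) were higher in the HIP, in 10, 10 and 12 of 12 mice. The call of mt-Ti held in 3 of 12 fits, without wt replicate 2, wt replicate 6 or Ts65Dn replicate 6, and was lost without each of the other mice (adjusted p up to 0.0946). mt-Tq (0.17, SE 0.11) and mt-Tc (0.12, SE 0.15) were not called. mt-Tp had 0.810, 1.30 and 1.80 CPM in the wt HIP and 0.525, 0.592 and 1.27 in the Ts65Dn HIP. In EC libraries it had 0.292, 0.853 and 1.03 CPM in wt and 0.429, 0.565 and 0.742 in Ts65Dn, on 7 to 76 counts per library.

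Nuclear genes that act on mitochondrial RNA were described from a fixed list. Of the 35 tested in the HIP, 1 was called higher and 0 lower (0.542% and 0.501% of all genes). Of the 34 in the EC, 0 were called higher and 1 lower (1.15% and 1.35%). The gene higher in the HIP was Tfb1m, a methyltransferase of the small-subunit rRNA encoded in the triplicated part of Mmu17, with 4.40 CPM in wt and 6.76 in Ts65Dn (log2 fold change 0.62, SE 0.12, adjusted p = 0.0299), and 0.49 (SE 0.13, adjusted p = 0.0552) in the EC. Fastkd5, which takes part in the processing of mitochondrial mRNA precursors, was lower in the EC (-0.47, SE 0.10, adjusted p = 0.0302) and had -0.37 (SE 0.11, adjusted p = 0.124) in the HIP. Tfam, which packages mitochondrial DNA and activates its transcription, had log2 fold changes of -0.03 (SE 0.05) in the HIP and -0.08 (SE 0.05) in the EC.

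Of 77 nuclear-encoded subunits of the respiratory chain and ATP synthase, 2 were called higher in each region (0.542% and 1.15% of all genes). These were Atp5j and Atp5o, both in the triplicated Mmu16 segment. Their log2 fold changes were 0.57 (HIP) and 0.50 (EC) for Atp5j and 0.50 in each region for Atp5o. In the HIP 1 was called lower (0.501% of all genes), and 0 were in the EC (1.35%). It was Uqcrb, a subunit of complex III (-0.24, SE 0.05, adjusted p = 0.0377). The median of these 77 genes was 0.01 (HIP) and -0.02 (EC), near that of all genes (0.005). Of the 22 mitochondrial tRNA synthetases and related enzymes, 0 were called in either region, where 1.04% (HIP) and 2.50% (EC) of all genes were called. Between regions, 56 of the 77 subunits were lower in the HIP (32.9% of all genes) and 1 higher (35.5%). Their median log2 fold change was -0.18, beside 0.009 for all genes. Among short RNAs with no mitochondrial origin, 4 snRNA, snoRNA and scaRNA genes could be tested and 0 were called. Of 10 other small RNAs listed by name, 3 could be tested per region, and only Bc1, a neuronal RNA, was called. Bc1 rose in both regions (1.71, adjusted p = 0.000486, and 1.45, adjusted p = 0.0136). The median log2 fold changes of the 3 tested genes, -0.13 (HIP) and 0.89 (EC), lay below those of Bc1.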

How the data were processed

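RNA of HIP and EC was sequenced by the authors as single-end 50-base reads, aligned to GRCm38 with Hisat2 and counted per gene with HTSeq-count and Ensembl annotation. The labels name a stranded poly-T kit, whereas the methods name an rRNA depletion kit and then poly-A RNA, so counts of the rRNA genes may reflect what that step left. The counting options, which set how reads with several positions, overlapping genes and strands were treated, are not given in the sources used here. The deposited values are raw counts per gene, and the authors' normalized tables and their table of comparisons (fold changes, p-values) were not used here. Groups came from the labels, and the columns carry the sample descriptions.

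Genes were placed by the GENCODE vM21 annotation of GRCm38 (55144 of 55385 matched). Counts were filtered with filterByExpr, scaled by TMM and tested with edgeR 4.0.16 in R 4.3.3 (glmQLFit, glmQLFTest), with Benjamini-Hochberg adjustment over all genes tested and calls at 0.05. Genotypes were compared within a region with no covariate. The region and interaction fits had a term for each mouse, since the titles give 1 mouse for each pair of regions: deviations of the HIP and EC of a mouse from their group means correlated at 0.194 to 0.499 in all 12 mice. CPM values are gene counts relative to the TMM-scaled library total, and CPM per kb divides by exon length. Sequences are those of GENCODE transcripts, and no genome sequence was used here. Named genes were the genes called in a region, both rRNA genes, mt-Nd6, the 3 highest and 3 lowest protein-coding genes per length, the 3 highest tRNA genes, the 3 largest called region differences in each direction, the 3 smallest interaction p-values, and called nuclear list genes with Tfam and Tfb1m. mt-Co2, mt-Nd4, mt-Nd5, mt-Tk and the pseudogenes were named outside this rule, after their values were seen.

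Alternatives were DESeq2 1.42.0, other size factors and filters, another threshold, and each mouse left out. The genotype fits were also run with a replicate block and with GC content and length removed, and the region and interaction fits with no term for each mouse. The genes and lists were chosen with earlier results of these data known. On simulated counts with 200 genes changed 1.5-fold, the fit recovered 106 in the HIP (9 false calls among 17355 genes) and 136 in the EC (8 among 17049). Libraries held 23128589 to 40476492 gene counts, and the precision this gives covers counting error only.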

Additional observations from a re-analysis of the deposited data

Results flagged for a closer look

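Among 92 pairs of a group of 6 libraries and a value (19 named genes and 4 shares), 16 had a highest library whose gap to the next was large beside the range of the group. For a single pair chance gives about 1 in 20. The pairs are not independent, since the shares are sums of such genes and 1 library enters many pairs, so the number flagged cannot be set against that rate. Ts65Dn HIP replicate 5 was highest in the share of the 37 genes (4.39%, next 3.74%), in mt-Rnr2 (4427 CPM, next 3383), mt-Nd6 (1281, next 978), mt-Cytb (7328, next 6280), mt-Co1 (8559, next 7604) and mt-Nd2 (4714, next 3758). Ts65Dn EC replicate 5, the same mouse, was highest in the rRNA share (0.895%, next 0.677%), mt-Rnr2 (5178 CPM, next 3810), mt-Rnr1 (4031, next 2962) and mt-Nd6 (1420, next 1120). Wt EC replicate 2 was highest in the rRNA share (1.29%, next 1.05%), mt-Rnr1 (5583 CPM, next 4484), mt-Nd4l (2.10, next 0.690) and mt-Ts1 (1.33, next 0.879). Wt HIP replicate 5 was highest in mt-Nd4l (1.37 CPM, next 0.896) and mt-Tm (1.90, next 1.48).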

How the results depend on the processing

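Between genotypes, 3 of the 24 genes were called for HIP and 5 for EC. These numbers were 5 and 10 with DESeq2, 5 and 12 at an adjusted p under 0.1, 1 and 0 with GC content and length removed, and 7 and 9 with nuclear copies added, a setting chosen after seeing the data. The cause was not tested. The share of all genes called under each alternative setting, here and above, is not given. A rise or fall in these numbers is therefore not a result about the mitochondrial genes. With 1 mouse left out, HIP calls ran from 1 to 4 and EC calls from 2 to 7, and every called gene was lower in Ts65Dn under each of these settings. Replicate numbers did not pair wt and Ts65Dn mice (correlations of deviations -0.265 to 0.212 for HIP and -0.137 to 0.191 for EC), and the replicate block gave 2 and 2 calls, or 0 and 0 with GC content and length also removed. Between regions 16 to 18 genes were called without 1 mouse, and 15 with no term for each mouse. The interaction gave 0 calls without any 1 mouse and with no term for each mouse, and 1 with no filter on low counts. Share differences between genotypes were -0.76 to -0.55 percentage points (HIP) and -1.42 to -0.91 (EC) without 1 mouse, and those between regions -0.93 to -0.72. With GC content and length removed, the log2 fold change turned positive in the HIP for mt-Nd6 (0.0552), mt-Co1 (0.0748), mt-Tc (0.06), mt-Tm (0.1145), mt-Nd2 (0.012) and mt-Ta (0.1463), and with the block too (0.0579, 0.0783, 0.0493, 0.0791 and 0.0121 for the first 5), and in the EC for mt-Nd6 (0.0446), mt-Ti (0.5961), mt-Tp (0.0023) and mt-Ta (0.1684), with the block 0.0537, 0.4804 and 0.0607 for the first 3. With 1 mouse left out, mt-Ti in the EC ran from -0.436 to 0.0201, above 0 without Ts65Dn replicate 3 or 4 (0.0031). Between regions, mt-Tc turned to -0.2159 in the wt mice alone and ran from -0.013, without Ts65Dn replicate 3, to 0.1951, and with copies added mt-Nd4l turned to -0.3715 and mt-Nd3 to -0.6577. The interaction of mt-Te ran from -0.1399 to 0.0533 and was above 0 without Ts65Dn replicate 1, 3, 4 or 5 or wt replicate 6. Depth limits the 13 genes not tested, with at most 73 counts over 24 libraries.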
